A study of Mus musculus with 6 samples.

Results

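Ribosome biogenesis factors are the nucleolar proteins that transcribe, modify and cut ribosomal RNA and fold it into the small and large ribosomal subunits, together with the RNA polymerase I machinery that makes the precursor. They were followed here as 40 genes named by symbol, of 22180 genes measured in all. For 39 of them the array had at least 1 probe set that names that gene alone, and the probe set with the highest mean over the 6 arrays was used. Fbl, which encodes the methyltransferase fibrillarin, was listed only together with another gene and was not analysed here.

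The arrays held RNA of haematopoietic stem cells sorted from the bone marrow of C57BL/6J mice by the presence or absence of CCR2, the receptor that guides monocytes out of the marrow in response to the chemokine CCL2. There were 3 CCR2-positive and 3 CCR2-negative pools, each pooling the marrow of 20 mice, and the labels name no engineered allele and no treatment in either group. Neither the age and sex of the mice nor the further surface markers of the sort could be taken from the labels. The design text calls the pools biological replicates, and 5 ng of total RNA of each was amplified before hybridisation. Values are log2 levels per probe set, and a difference is the CCR2-positive mean minus the CCR2-negative mean, with its standard error from limma.

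Making ribosomes starts in the nucleolus, where RNA polymerase I copies the ribosomal DNA into a long precursor. Small nucleolar ribonucleoproteins then modify the precursor, of which the box C/D class methylates riboses and the box H/ACA class turns uridines into pseudouridines, and large assemblies cut and fold it. Stem cells of the marrow are known for a low rate of protein synthesis, and the ribosome biogenesis genes are classical targets of the transcription factor MYC, which rise when cells enter growth and division.

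No ribosome biogenesis factor passed an adjusted limma p of 0.05 between CCR2-positive and CCR2-negative stem cells, in either direction. The smallest adjusted p of a member was 0.421, that of Nop2. Over all genes the share past this threshold was 0.0% as well. At an unadjusted p under 0.05 there were 0 of 39 members, against 12.2% of all genes. The members are therefore described by the size of their differences. Of the 39, 25 had a higher and 14 a lower mean in the CCR2-positive pools, beside 56.0% higher and 44.0% lower among all genes, with a median difference of 0.05 for the members and 0.03 for all genes. Differences ran from -0.16 for Nob1 to 0.36 for Noc4l, and 29 of the 39, or 74.4%, were smaller than their own standard error, which held for 51.8% of all genes.

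The intervals of the main fit bound, gene by gene, the size of a change that could have gone unseen on the probe set used. They were not widened for the number of members. The 95% intervals of all 39 members lay between -0.56, the lower end for Pes1, and 0.80, the upper end for Noc4l. On these probe sets none reached a log2 difference of 1 in either direction. Within 0.5 to either side of zero, which is 1.41-fold, lay the intervals of 25 members, or 64.1%, against 64.9% of all genes. The other members' intervals leave room for a change larger than that. The bound also depends on the probe set. Nop56 differed by -0.35 ± 0.28 on the mean of its probe sets, against -0.03 ± 0.14 on the brightest.

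**Figure D1:**
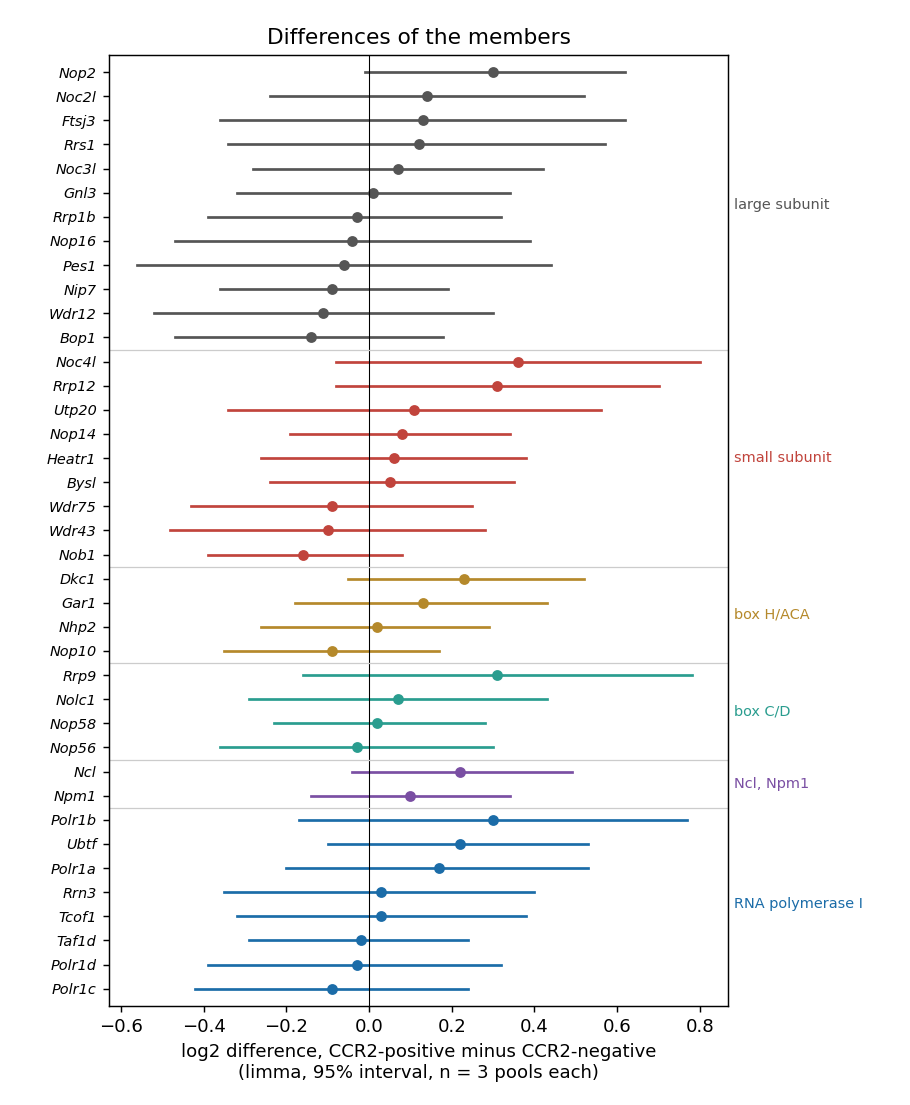
Log2 difference between the CCR2-positive and the CCR2-negative pools for each of the 39 measured members (points), with the 95% limma interval (bars), ordered by role. Every interval includes 0, and the lowest and highest ends are -0.56 for Pes1 and 0.80 for Noc4l.

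Among the genes of ribosomal RNA synthesis, 5 of 8 had a higher mean in the CCR2-positive pools, with a median difference of 0.03. Ubtf, the factor that binds along the ribosomal DNA and keeps it open, had 8.33, 8.71 and 8.22 in CCR2-positive replicates 1, 2 and 3 and 8.20, 8.19 and 8.23 in the CCR2-negative ones. Only CCR2-positive replicates 1 and 2 lay above the CCR2-negative pools, replicate 3 lay among them, and the difference was 0.22 ± 0.14 (limma adjusted p = 0.556). Polr1b, the second-largest subunit of the polymerase, had 7.59, 8.20 and 7.61 in the CCR2-positive and 7.65, 7.15 and 7.70 in the CCR2-negative pools. Its difference of 0.30 ± 0.20 (limma adjusted p = 0.582) came with 1 high CCR2-positive pool and 1 low CCR2-negative pool, and the remaining 4 pools lay between 7.59 and 7.70. Polr1a, the largest subunit, stood at 8.20, 8.75 and 8.29 against 8.27, 8.37 and 8.09, CCR2-positive first, with a difference of 0.17 ± 0.16. Again replicate 2 of the CCR2-positive pools was the highest and the groups overlapped. Polr1c and Polr1d, which RNA polymerase I shares with RNA polymerase III, differed by -0.09 ± 0.14 and -0.03 ± 0.16. Rrn3, which brings the polymerase to the promoter, differed by 0.03 ± 0.16, and Tcof1, the nucleolar protein treacle, by 0.03 ± 0.15. Taf1d, a subunit of the promoter selectivity factor, differed by -0.02 ± 0.12 on its brightest probe set, but it had 11 probe sets, of which 7 gave a higher and 4 a lower mean, from -0.23 to 0.36, and 2 of the higher ones held identical values. Taf1d is known as a host gene of small nucleolar RNAs, and which transcript each probe set reads was not tested.

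The abundant nucleolar proteins nucleolin and nucleophosmin both had slightly higher means in the CCR2-positive pools. Ncl, nucleolin, had 11.34, 11.44 and 11.15 in the CCR2-positive pools and 11.03, 11.03 and 11.21 in the CCR2-negative pools. CCR2-positive replicate 3 lay below CCR2-negative replicate 3, so the groups overlapped. The difference was 0.22 ± 0.12, or 1.17-fold (limma adjusted p = 0.476). Npm1, nucleophosmin, a chaperone that also shuttles subunits out of the nucleus, had 11.96, 12.02 and 11.91 against 11.74, 11.88 and 11.97, a difference of 0.10 ± 0.11. Its pools overlapped too, and its other probe set differed by 0.05.

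In the box C/D class 3 of the 4 measured genes had a higher mean, with a median difference of 0.05. The count was 2 after median centring and 4 with array weights, with a median of 0.02 in both. Rrp9, the protein specific to the U3 particle that helps to cut the precursor, had 8.10, 8.40 and 7.58 in the CCR2-positive pools, against 7.48, 7.76 and 7.89 in the CCR2-negative pools. CCR2-positive replicates 1 and 2 lay above all CCR2-negative pools and replicate 3 lay near their lowest, which gave 0.31 ± 0.21 (limma adjusted p = 0.566). The scaffold proteins Nop56 and Nop58 differed by less than their standard errors, Nop56 by -0.03 ± 0.14 and Nop58 by 0.02 ± 0.11. For Nop56 the pools stood at 9.54, 9.74 and 9.50 with CCR2 and at 9.45, 9.91 and 9.50 without it. Here the highest value was that of CCR2-negative replicate 2. All 3 probe sets of Nop56 had a lower mean in the CCR2-positive pools, from -0.69 to -0.03, but in each the groups overlapped. The one at -0.69 had 4.61, 7.73 and 5.83 in the CCR2-positive pools, against 7.02, 6.63 and 6.59. Its highest pool was thus CCR2-positive replicate 2. In the one at -0.34, CCR2-negative replicate 2 stood at 8.19 and the other pools between 7.06 and 7.37. Nolc1, a chaperone of both classes of particle, differed by 0.07 ± 0.16.

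The box H/ACA class had 3 of 4 genes with a higher mean and a median difference of 0.07, or 2 of 4 with 0.05 after median centring. Dkc1, the pseudouridine synthase dyskerin, which also belongs to the telomerase particle, had 9.13, 9.24 and 9.04 in the CCR2-positive and 8.72, 9.08 and 8.91 in the CCR2-negative pools. The groups overlapped only in that CCR2-positive replicate 3 lay just under CCR2-negative replicate 2, and the difference was 0.23 ± 0.12, or 1.18-fold (limma adjusted p = 0.480). Gar1, a partner of dyskerin, had 8.42, 8.66 and 8.32 against 8.37, 8.15 and 8.49 and differed by 0.13 ± 0.13. The remaining partners, Nhp2 and Nop10, differed by 0.02 ± 0.12 and -0.09 ± 0.11.

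Among the 9 factors of the small subunit 6 had a higher mean, with a median of 0.06, or 4 of 9 with array weights. Noc4l, which works with Nop14 in small subunit assembly, had the largest difference of all members, 0.36 ± 0.19 or 1.28-fold, from 8.37, 8.71 and 7.89 in the CCR2-positive and 7.82, 8.06 and 8.01 in the CCR2-negative pools. CCR2-positive replicate 3 lay within the range of the CCR2-negative pools, and the limma adjusted p was 0.490. Rrp12, which helps to carry subunits out of the nucleus, had 6.84, 7.36 and 6.78 with CCR2 and 6.82, 6.49 and 6.73 without it. Most of its difference of 0.31 ± 0.17 (limma adjusted p = 0.493) lay in CCR2-positive replicate 2 and CCR2-negative replicate 2, since the remaining 4 pools lay between 6.73 and 6.84. Nob1, the nuclease that makes the final cut of the small subunit's RNA, went the other way, with 8.11, 8.16 and 7.97 against 8.29, 8.17 and 8.26. Its pools did not overlap, though CCR2-positive replicate 2 and CCR2-negative replicate 2 were 0.01 apart on the rounded values, and the difference was -0.16 ± 0.10 (limma adjusted p = 0.560). The other members of the early assembly differed by less than their standard errors. This does not place them at 0, and the interval of Utp20 ran from -0.34 to 0.56. Utp20 differed by 0.11 ± 0.20, Nop14 by 0.08 ± 0.12 and Heatr1 by 0.06 ± 0.14. Wdr43 and Wdr75, of a subcomplex linked to transcription of the precursor, had -0.10 ± 0.17 and -0.09 ± 0.15. Bysl, a later factor, had 0.05 ± 0.13.

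The 12 factors of the large subunit had 6 higher and 6 lower means and a median of -0.01, or 8 and 4 with a median of 0.06 with array weights, 8 and 4 with 0.02 after cyclic loess, 7 and 5 with 0.02 after a second quantile normalization, and 5 and 7 with -0.04 after median centring. Nop2, a methyltransferase of the large subunit's RNA, had the smallest p of all members and 8.22, 8.67 and 8.28 in the CCR2-positive pools against 8.05, 8.04 and 8.18 in the CCR2-negative pools. Its pools did not overlap, replicate 1 with CCR2 being the nearest to replicate 3 without it. The difference was 0.30 ± 0.14, or 1.23-fold, with an interval of -0.01 to 0.62 (limma adjusted p = 0.421). Nop2 and Nob1 were the only members without overlap, 1 in each direction, where 18.6% of all genes had none, 10.8% of all being higher and 7.88% lower. The 3 proteins of the PeBoW complex, which is needed to mature the large subunit, all had lower means, although Pes1 turned to 0.1 with array weights and, like Wdr12, turned without some pools. Bop1 had 6.95, 7.45 and 7.01 in the CCR2-positive and 7.23, 7.34 and 7.27 in the CCR2-negative pools, a difference of -0.14 ± 0.14. CCR2-positive replicate 2 was its highest pool while replicates 1 and 3 were its lowest. Wdr12 differed by -0.11 ± 0.18 and Pes1 by -0.06 ± 0.22. Gnl3, nucleostemin, a nucleolar GTPase of stem and dividing cells, differed by 0.01 ± 0.14, from 10.40 ± 0.11 (SD, n = 3) with CCR2 and 10.39 ± 0.26 (SD, n = 3) without it. The rest, Noc2l, Ftsj3, Rrs1, Noc3l, Rrp1b, Nop16 and Nip7, lay between -0.09 for Nip7 and 0.14 for Noc2l.

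Promoters are shown for the 4 members with the smallest p for which RefSeq (GRCm38.p6) gave a single start. Whether these sequences bear on the levels in the pools was not tested. RefSeq starts were found for 34 of the 40 members. The 250 bases before the start are given 5′ to 3′ on the gene's strand, and capitals mark a match to CACGTG, the E-box bound by MYC and MAX, or to GGGCGGGG, a GC box, on either strand. They lie at chr6:125131633-125131882, plus strand for Nop2, chr1:86359456-86359705, minus strand for Ncl, chrX:75095604-75095853, plus strand for Dkc1 and chr5:110653383-110653632, minus strand for Noc4l.
Nop2: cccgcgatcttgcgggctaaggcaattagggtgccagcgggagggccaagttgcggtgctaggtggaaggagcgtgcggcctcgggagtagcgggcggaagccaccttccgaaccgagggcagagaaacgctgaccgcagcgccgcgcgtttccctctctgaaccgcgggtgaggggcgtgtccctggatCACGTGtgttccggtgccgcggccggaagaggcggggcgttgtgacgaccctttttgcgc
Ncl: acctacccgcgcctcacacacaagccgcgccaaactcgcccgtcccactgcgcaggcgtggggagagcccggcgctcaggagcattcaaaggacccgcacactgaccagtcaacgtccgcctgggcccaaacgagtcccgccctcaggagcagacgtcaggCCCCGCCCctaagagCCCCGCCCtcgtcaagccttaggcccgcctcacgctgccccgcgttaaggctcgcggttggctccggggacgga
Dkc1: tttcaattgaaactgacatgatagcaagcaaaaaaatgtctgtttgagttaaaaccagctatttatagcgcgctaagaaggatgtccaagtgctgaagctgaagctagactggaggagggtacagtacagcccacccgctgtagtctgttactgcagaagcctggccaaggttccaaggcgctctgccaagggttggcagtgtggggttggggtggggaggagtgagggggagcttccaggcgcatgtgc
Noc4l: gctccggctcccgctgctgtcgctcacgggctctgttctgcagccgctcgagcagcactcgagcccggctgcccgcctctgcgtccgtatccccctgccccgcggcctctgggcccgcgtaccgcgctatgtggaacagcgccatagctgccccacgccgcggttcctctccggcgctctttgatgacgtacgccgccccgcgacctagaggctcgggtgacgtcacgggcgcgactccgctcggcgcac
The E-box in Nop2 begins 60 bases before the start, and Ncl holds 2 GC boxes beginning 89 and 74 bases before it. Dkc1 and Noc4l held no match in these windows. Over all members with a window, CACGTG was found in 2 of 34, Nop2 and Rrn3, or 5.88%, against 6.86% of 27025 genes. GGGCGGGG was found in 9 of 34, or 26.5%, against 18.0%, and CCGGAAGT, a motif of ETS factors, in 5 of 34, or 14.7%, against 3.23%. The 5 were Gar1, Heatr1, Nhp2, Nip7 and Polr1c. The motifs were searched on both strands and do not overlap each other in the printed windows, and a gene with several starts was counted if any window matched. These counts are descriptions, and the motifs were chosen after the levels were seen.

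What most members shared was their highest pool. CCR2-positive replicate 2 had the highest level of the 6 pools for 25 of 39 members, where it was the highest for 18.3% of all genes, and it was the highest of the 3 CCR2-positive pools for 36, against 33.1%. The exceptions were Polr1d, Nhp2 and Taf1d. These counts use only the probe set with the highest mean. The other Rrs1 probe set had 6.65, 6.81 and 6.92 in CCR2-positive replicates 1, 2 and 3, with replicate 3 the highest. Taf1d had 11.73, 11.73 and 11.76 on its brightest probe set. Its other probe sets varied, such as 10.14, 10.58 and 9.83 on one and 5.13, 5.64 and 6.68 on another. CCR2-positive replicate 3 was the lowest of the 6 for 16 members, against 19.7% of all genes, and the highest for 0, against 24.9%. Its count as the lowest was 9 after a second quantile normalization, 7 after cyclic loess and 20 after median centring. CCR2-negative replicate 1 was the lowest for 11 members, against 17.9% of all genes. Its count was 14 after a second quantile normalization and after cyclic loess, and 9 after median centring. CCR2-negative replicate 2 was the highest for 10 members, against 16.6% of all genes. Within its own group CCR2-positive replicate 3 was the lowest for 29 members, against 34.4% of all genes. Between CCR2-positive replicates 2 and 3 the median gap was 0.41 over the members and -0.02 over all genes, and 37 of the 39 members were higher in replicate 2. These are the extreme pools of that group, and the distance between their means over the members, 8.99 against 8.57, depended on the scaling. It was smaller after a second quantile normalization, 8.94 against 8.66, and after cyclic loess, 8.93 against 8.68. After median centring it was larger, 9.01 against 8.52.

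**Figure D2:**
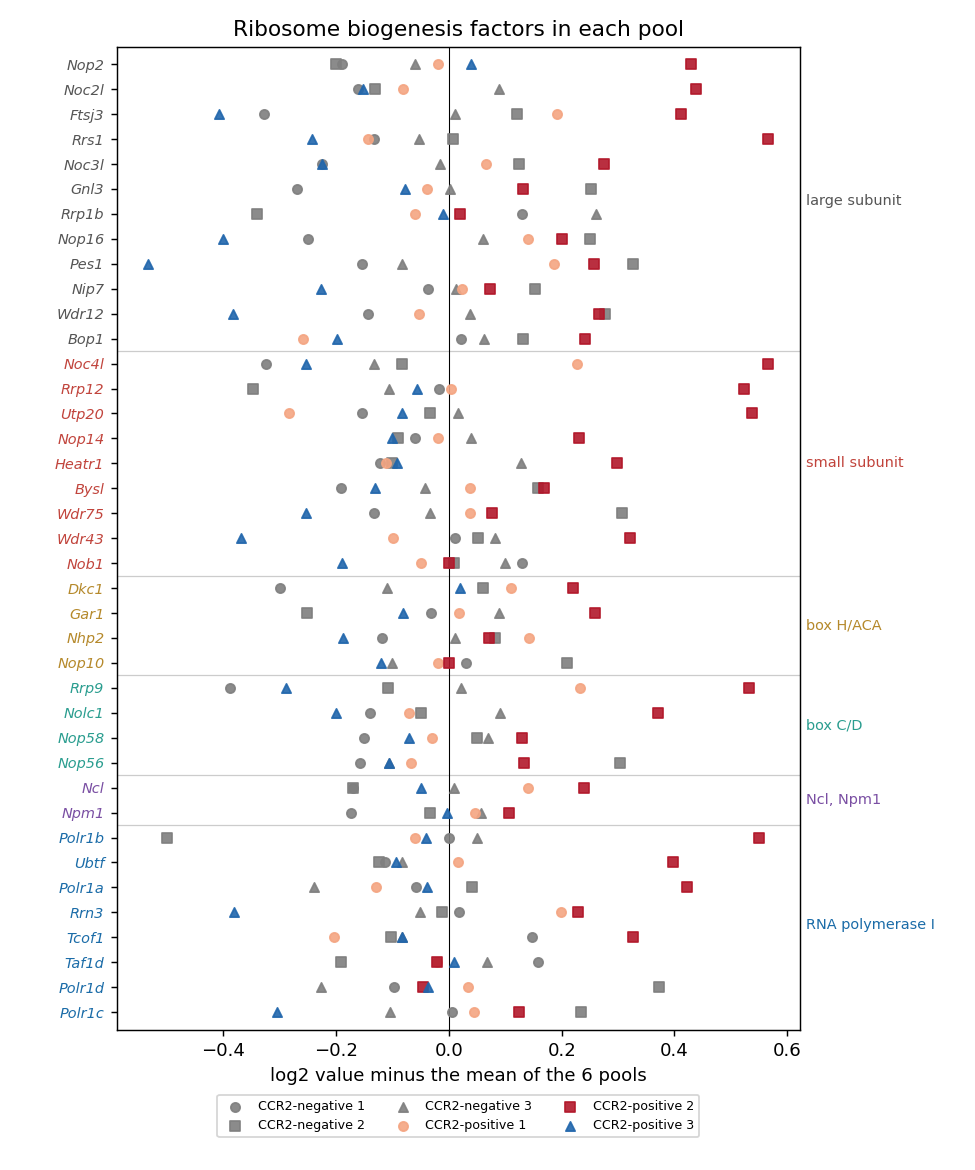
Level of each member in each pool, as the log2 value minus its mean over the 6 pools, with CCR2-negative pools in grey and CCR2-positive replicates 1, 2 and 3 as orange circles, red squares and blue triangles. The red squares are the highest of the 6 pools for 25 of 39 members. The blue triangles are the lowest for 16 on the deposited scale. That count was 9 after a second quantile normalization, 7 after cyclic loess and 20 after median centring.

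The mean level over the 39 members was 8.74, 8.99 and 8.57 in CCR2-positive replicates 1, 2 and 3 and 8.63, 8.75 and 8.73 in the CCR2-negative ones. The CCR2-positive pools thus held both the highest and the lowest mean, with 8.77 ± 0.21 (SD, n = 3) against 8.70 ± 0.07 (SD, n = 3). The median SD of a member was 0.25 between CCR2-positive and 0.14 between CCR2-negative pools, where all genes had 0.15 and 0.13, and 28 of 39 members, or 71.8%, varied more among the CCR2-positive pools, against 57.5% of all genes. The place of replicate 3 moved with the scaling. Its array had the narrowest distribution, with an SD of 1.811 over probe sets against 1.853 to 1.875 for the others, and after a second quantile normalization the lowest mean of the members was that of CCR2-negative replicate 1 at 8.61, with CCR2-positive replicate 3 at 8.66. Replicate 2 stayed highest at 8.94, and was the highest of the 6 for 23 members, or for 22 after cyclic loess and 24 after median centring.

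The balance of higher and lower members turned with the pools that were counted. Without CCR2-positive replicate 2, 10 members had a higher and 29 a lower mean, and the median difference was -0.045. In that fit 1 member, Bop1, had an unadjusted limma p under 0.05, as lower, against 13.7% of all genes in either direction. Without CCR2-positive replicate 3, 33 were higher and 6 lower, with a median of 0.142, and 4 members, Ncl, Noc4l, Nop2 and Rrp9, had an unadjusted limma p under 0.05, against 11.2% of all genes. Without CCR2-negative replicate 2, 30 were higher and 9 lower. The remaining 3 pools left 21 to 26 members higher. No member passed an adjusted p of 0.05 in any of these fits. Only 13 members kept the sign of their difference in each alternative run, among them Nop2, Ncl, Dkc1, Noc4l, Rrp12, Ubtf, Rrp9 and Polr1b as higher and Nob1, Bop1 and Nop10 as lower.

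**Figure D3:**
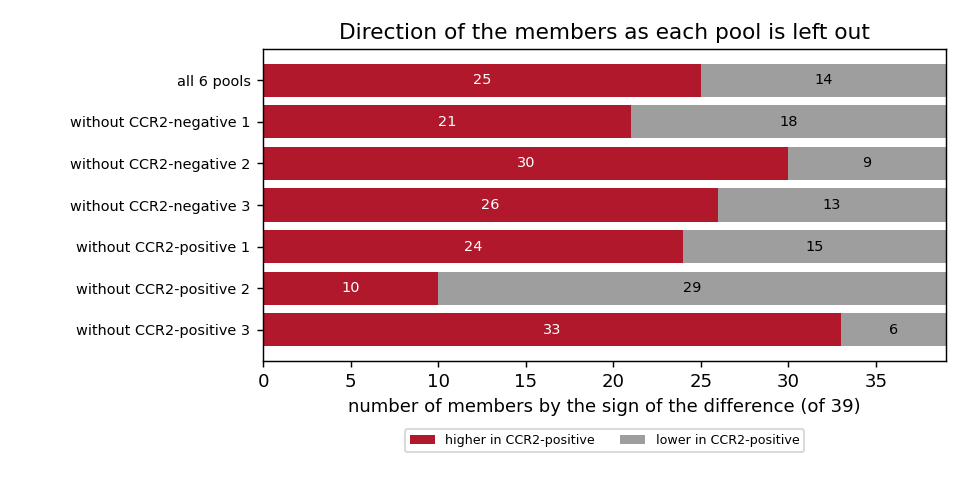
Number of the 39 members with a higher (red) or a lower (grey) mean in the CCR2-positive pools, for all 6 pools and with each pool left out. The split is 25 to 14 with all pools, 10 to 29 without CCR2-positive replicate 2 and 33 to 6 without CCR2-positive replicate 3.

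A wider set of ribosome biogenesis genes had no call either, with more lower than higher means on the deposited scale. Of 117 further genes, 106 were measured, and 47 had a higher and 59 a lower mean in the CCR2-positive pools, with a median difference of -0.01. After cyclic loess the split was 59 to 47 with a median of 0.02, and after a second quantile normalization 56 to 50 with 0.04. None passed an adjusted limma p of 0.05, and at an unadjusted p under 0.05 there were 3 higher and 2 lower, beside 5.63% and 6.61% of all genes. CCR2-positive replicate 2 was the highest of the 6 pools for 55 of the 106, against 18.3% of all genes, and CCR2-negative replicate 2 for 35, against 16.6%. CCR2-positive replicate 3 was the lowest for 56, against 19.7% of all genes. For this wider set these counts were made on the deposited scale only. The 4 higher genes with the smallest p were Tbl3, Pelp1, Pwp2 and Nol6. Tbl3, a protein of the small subunit's early assembly, had 7.17, 7.46 and 7.27 in the CCR2-positive and 6.73, 6.88 and 6.93 in the CCR2-negative pools, a difference of 0.45 ± 0.12 (limma adjusted p = 0.221). Its pools did not overlap. Pwp2, of the same subcomplex, differed by 0.31 ± 0.13, Pelp1, which takes part in maturing the large subunit, by 0.42 ± 0.13, and Nol6 by 0.24 ± 0.11. In the other direction, Taf1b, a subunit of the promoter selectivity factor of RNA polymerase I, had 7.95, 7.83 and 8.20 against 8.69, 8.75 and 8.30, a difference of -0.58 ± 0.15 (limma adjusted p = 0.230). CCR2-positive replicate 3 and CCR2-negative replicate 3 lay nearest to each other, without overlap. Taf1a of the same factor differed by -0.37 ± 0.16, Utp11 of the small subunit by -0.25 ± 0.12, and Shq1, an assembly chaperone of dyskerin, by -0.75 ± 0.23. Since these 8 genes were picked by p, nothing is read from their pools not overlapping.

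Regulators of ribosome production did not pass either. Of 14 listed, 12 were measured, 4 with a higher and 8 with a lower mean, or 6 and 6 after a second quantile normalization. Myc, the transcription factor, had 9.84, 9.96 and 9.74 in the CCR2-positive and 10.03, 9.90 and 10.06 in the CCR2-negative pools, which overlapped, and differed by -0.15 ± 0.11 (limma adjusted p = 0.610). Mycn, its relative, differed by -0.53 ± 0.24, from 6.19, 5.61 and 6.57 against 6.99, 6.47 and 6.50, also with overlap (limma adjusted p = 0.422). CCR2-positive replicate 2, the highest pool of most members, was the lowest for Mycn. Max, the partner of MYC, differed by 0.09 ± 0.12. Among genes whose products oppose MYC at its sites, Mga differed by -0.37 ± 0.13, with 8.28, 8.65 and 8.21 against 8.77, 8.76 and 8.73 and a limma adjusted p of 0.320. It was the only regulator of the 12 with an unadjusted p under 0.05, against 12.2% of all genes. The pools of Mga, as lower, and of Cdkn2a, as higher, did not overlap, against 18.6% of all genes in either direction. Mxd4 differed by -0.25 ± 0.14, Mxd1 by -0.16 ± 0.13 and Mnt by 0.05 ± 0.12. Mtor and Rptor, of the kinase complex that couples nutrients to ribosome production, differed by less than 0.01 with standard errors of 0.16 and 0.17. Larp1, which binds messages of ribosomal proteins, differed by 0.13 ± 0.16, Mdm2, the ligase that ribosomal proteins restrain, by -0.22 ± 0.14, and Cdkn2a by 0.26 ± 0.11.

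Other gene lists also differed between the pools that stood apart for the members. Replicates correlated at r = 0.966 to 0.974 among the CCR2-positive and 0.975 to 0.983 among the CCR2-negative arrays, across probe sets. Between the groups r ran from 0.96 to 0.977, which reached above the highest value among the CCR2-positive arrays. Ccr2 itself differed by 0.79 ± 0.24 (limma adjusted p = 0.274), and its pools overlapped, with 6.18 in CCR2-positive replicate 3 and 6.26 in CCR2-negative replicate 2. The list means of S phase genes lay between 8.41 and 8.79 in the CCR2-positive and 8.43 and 8.51 in the CCR2-negative pools. They were highest in replicate 2 and lowest in replicate 3 of the CCR2-positive pools, as for the members. The means of G2 and M phase genes were also lowest in CCR2-positive replicate 3, at 8.6. Their highest, 8.99, was shared by CCR2-positive replicate 2 and CCR2-negative replicate 2. These list means are on the deposited scale. Of 18 measured S phase genes 13 had a higher mean, and of 19 genes of G2 and M phase 15 had a lower mean, or 12 after a second quantile normalization. In CCR2-positive replicate 2 the means of the 10 erythroid, 10 neutrophil and 9 monocyte and macrophage markers lay at 0.58, 0.73 and 0.47 from their averages over all pools, and that of the 11 stem cell markers at -0.47 from its own. All 10 erythroid and all 10 neutrophil markers (9 of these after further normalization), 8 of 9 monocyte and macrophage markers and 0 of 11 stem cell markers had a higher mean in the CCR2-positive pools. Erythroid list means ran from 8.95 to 9.47 in the CCR2-positive and from 8.25 to 8.75 in the CCR2-negative pools, neutrophil means from 5.65 to 6.58 and from 5.39 to 5.88, and monocyte and macrophage means from 6.23 to 6.76 and from 6.00 to 6.18. For stem cell markers they were 6.81 to 7.19 and 7.40 to 7.74. Of the measured B cell, T cell and megakaryocyte markers, 5 each, 4, 4 and 3 had a higher mean, with medians of 0.10, 0.11 and 0.02, the last of which turned to -0.00475 with median centring. The table holds no detection calls, so no marker could be called absent. The part of these markers in the pool order of the ribosome biogenesis factors was not tested. In RNA of pooled cells, fewer cells of a type and less RNA per cell cannot be told apart.

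**Figure D4:**
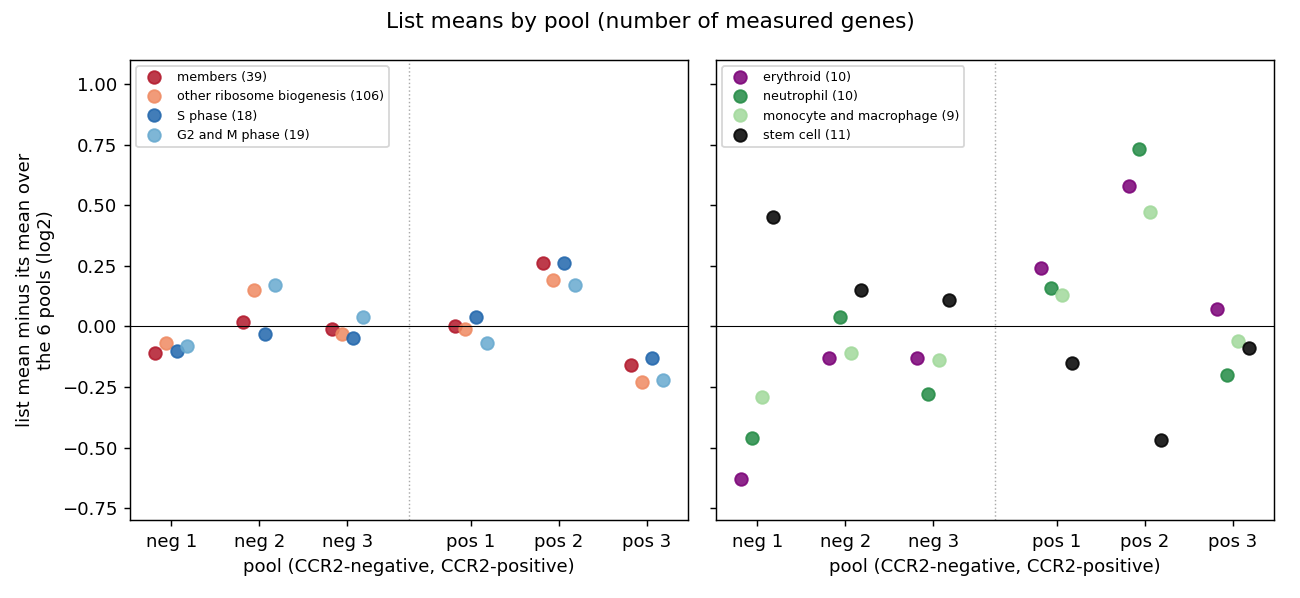
Mean log2 level of each gene list in each pool, minus its mean over the 6 pools, with growth and cell cycle lists on the left and lineage lists on the right, and numbers of measured genes in the legend. The ribosome biogenesis factors lie at 0.26 in CCR2-positive replicate 2 and at -0.16 in CCR2-positive replicate 3, and the stem cell markers at -0.47 and -0.09.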

How the data were processed

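Transcript levels were measured on 6 arrays, 1 per pool. The authors deposited 1 table of log2 values for 41345 probe sets, made with RMA per the submitters' processing notes; no source used here gives its settings. The scale was checked from the range, 2.39 to 13.3, with array medians of 5.48 to 5.58. RMA makes values relative to the rest of the array, and signal over background is unknown. With 3 pools per group the median standard error over all genes was 0.127.

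Of the probe sets, 23521 named 1 gene, 1814 several (left unnamed) and 16010 none; 23328 of the first matched mouse RefSeq by gene number, with 0 symbols changed. For 1082 genes with several probe sets the one with the highest mean was kept, giving 22180 genes. Groups were compared with limma 3.58.1 in R 4.3.3 (lmFit, eBayes), with Benjamini-Hochberg adjustment over all genes. All 39 measured members passed a filter at the median level. On data simulated from the 22180 genes for this comparison, with 10 simulations, the fit recovered 77.2%, 96.6% and 99.8% of genes with log2 changes of 1, 2 and 3. The simulated noise was drawn gene by gene with the same SD in both groups. Recovery of smaller changes, such as those of the members, was not tested. The members and lists were chosen with earlier results of these data known. Named with every pool are the 12 members of smallest p and the best known of each role; of the wider list, the 4 of smallest p in each direction. Alternatives were filters on dim probe sets, further normalizations, a replicate block, robust eBayes with a trend, array weights, averaged probe sets, and leaving out each pool.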

Additional observations from a re-analysis of the deposited data

How the results depend on the processing

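No member passed an adjusted limma p of 0.05 under any alternative, and the smallest over all of them was 0.252, so no call was gained or lost. At this threshold there were 0 genes of all, 0 to 2 with 1 pool left out, and 318 at a threshold of 0.2, with 0 members among them. Members at an unadjusted p under 0.05 numbered 4 after a second quantile normalization (Noc4l, Nop2, Rrp12 and Ubtf), 4 with cyclic loess (Dkc1, Noc4l, Nop2 and Ubtf), 2 with array weights (Dkc1 and Noc4l) and 0 to 4 with 1 pool left out. All of the 4, 4 and 2 were higher in the CCR2-positive pools. The shares of all genes in these fits, counted in either direction, were 12.1%, 11.7% and 14.5%. In the main fit the share was 12.2% in either direction and 5.63% as higher. The number of members with a lower mean ran from 6 to 29 and their median difference from -0.045 to 0.142 over the 6 fits that omit a pool, the extremes being those without CCR2-positive replicate 3 and 2. With all pools it was 12 to 17, and the median 0.028 to 0.091. The replicate block (the replicate number 1 to 3 shared by the groups) left 0 members at either p, 14 lower and a median of 0.052; the deviations of same-numbered pools from their group means correlated at 0.0348, 0.0892 and 0.0447, so the numbers were not taken as pairing.

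The sign of the difference turned in some alternative for 26 members, of which Polr1a had the largest difference (0.17 ± 0.16); the cause was not tested. With all pools it turned with array weights for Polr1d (0.06), Tcof1 (-0.048), Nop56 (0.011), Utp20 (-0.016), Heatr1 (-0.011), Pes1 (0.1) and Nop16 (0.065), with median centring for Nop58 (-0.0012), Nhp2 (-0.0076) and Gnl3 (-0.015), with cyclic loess for Nop16 (0.00037) and Rrp1b (0.02), with a second quantile normalization for Rrp1b (0.037) and with the mean of probe sets for Taf1d (0.04). As each pool was left out, the ranges that crossed 0 were those of Polr1a (-0.00064 to 0.28), Polr1c (-0.18 to 0.036), Polr1d (-0.15 to 0.14), Taf1d (-0.12 to 0.05), Rrn3 (-0.077 to 0.23), Tcof1 (-0.12 to 0.14), Nop56 (-0.11 to 0.12), Nop58 (-0.05 to 0.064), Nolc1 (-0.1 to 0.18), Nhp2 (-0.051 to 0.12), Utp20 (-0.13 to 0.28), Wdr43 (-0.28 to 0.062), Wdr75 (-0.18 to 0.043), Heatr1 (-0.07 to 0.14), Nop14 (-0.021 to 0.14), Bysl (-0.031 to 0.14), Pes1 (-0.2 to 0.19), Wdr12 (-0.27 to 0.052), Nop16 (-0.17 to 0.15), Noc2l (-0.045 to 0.25), Noc3l (-0.045 to 0.2), Rrp1b (-0.21 to 0.088), Rrs1 (-0.14 to 0.27), Gnl3 (-0.12 to 0.14), Nip7 (-0.15 to 0.0076) and Ftsj3 (-0.044 to 0.37).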
